A study of Mus musculus with 8 samples.

Results

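The comparison described here set haematopoietic stem cells (HSC) without E47 against wild-type HSC, both recovered as donor-derived cells from primary recipient mice. The 4 arrays were chosen by their sample titles, 2 labelled KO (E47 knock out) and 2 labelled WT (wild type), out of 8 arrays in the series. The other 4 arrays hold KO and WT cells from secondary recipients. They are used here for the shared estimate of spread, for the choice of each gene's probe and for a further look at the named genes. That look is therefore not independent. Cells were sorted by flow cytometry and lysed, and their mRNA was copied to cDNA, amplified as a whole by PCR (SuperAmp, a commercial procedure for samples of few cells) and labelled with Cy3 for one-colour Agilent whole mouse genome arrays. The strain, the age of the mice, the knockout allele, the time after transplantation, the sort gate and the number of mice or cells per array were not stated in the sources used here. The labels do not say that the 2 arrays of a group come from separate mice or cultures, so a p-value here covers array-to-array spread alone, and that spread may be technical.

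E47 is a splice product of Tcf3, also called E2A, a gene that also yields E12. It belongs to the E proteins, basic helix-loop-helix transcription factors that bind DNA at E-boxes as pairs, with each other or with partners such as Tal1 and Lyl1. Id proteins pair with E proteins and keep them off DNA. E proteins are known for starting the lymphoid and B cell programmes, and in HSC they have been studied for their part in lymphoid priming, in holding back the cell cycle and in long-term function after transplantation.

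The replicate 1 arrays of both genotypes were bright and the replicate 2 arrays of both were dim. Of all spots, 74% and 72.2% were well above background on the bright WT and KO arrays, and 41.9% and 35.4% on the dim WT and KO arrays. The 75th percentile of the processed signal was 320.3 and 356.8 on the bright arrays but 36.52 and 19.6 on the dim arrays, against 430.8 to 848.4 on the 4 secondary recipient arrays. Both WT arrays lay on slide 1 and both KO arrays on slide 3. Slide and genotype therefore cannot be told apart. All levels below are log2 levels relative to the median gene of the same array, and they are printed in the order bright WT, dim WT, bright KO, dim KO. A log2 change is limma's KO minus WT difference over both replicates, relative to the median gene, which itself shifted by 0.29. The number of arrays limits the precision: the median standard error of a change was 1.35, with quartiles of 1.12 and 1.74. Standard errors and p-values pool the spread of all groups, including the brighter secondary recipient arrays. They can therefore understate the spread of a gene whose bright and dim arrays of a genotype lie far apart.

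No gene passed the test between KO and WT. Of 22975 genes tested with limma, 0 (0%) had a Benjamini-Hochberg adjusted p under 0.05, and the lowest adjusted p was 0.995. At an unadjusted p under 0.05, 455 genes were higher in KO (1.98%) and 454 lower (1.98%), 909 in all, fewer than the 1149 that a share of 0.05 of all genes makes. The largest influence of a single array was that of the bright WT array. Without WT replicate 1, 542 genes passed, 2 higher and 540 lower in KO, in a fit that assumes the remaining WT array to vary as the other groups do. For the count of genes below, a gene is called apart when both KO levels lie above, or both below, both WT levels. By this measure 3415 genes (14.9%) were higher in KO and 2362 (10.3%) were lower. Every gene named below has an adjusted p of at least 0.995 in limma, so its values are a description of 4 arrays.

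The bright and the dim pair of arrays gave different pictures of the same comparison. Over the 9850 genes well above background on all 4 arrays, the bright arrays correlated with each other across genotypes at r = 0.783, while the WT arrays correlated at 0.538 and the KO arrays at 0.548. The KO minus WT difference had a standard deviation of 1.4 between the bright arrays and 2.77 between the dim arrays. Across these genes, which are not independent replicates, the difference on the bright arrays and that on the dim arrays correlated at Pearson's r = -0.013, with a Spearman rank correlation of 0.0019. Their signs were the same for 51.3% of genes. A difference beyond 3 log2 units in either direction was seen for 5.48% of genes on the bright arrays and for 15.7% on the dim arrays. The plot of one difference against the other shows the dim arrays' large values lying close to a bright difference of 0, with the 20 genes described next at the far ends of the diagonal.

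**Figure D1:**
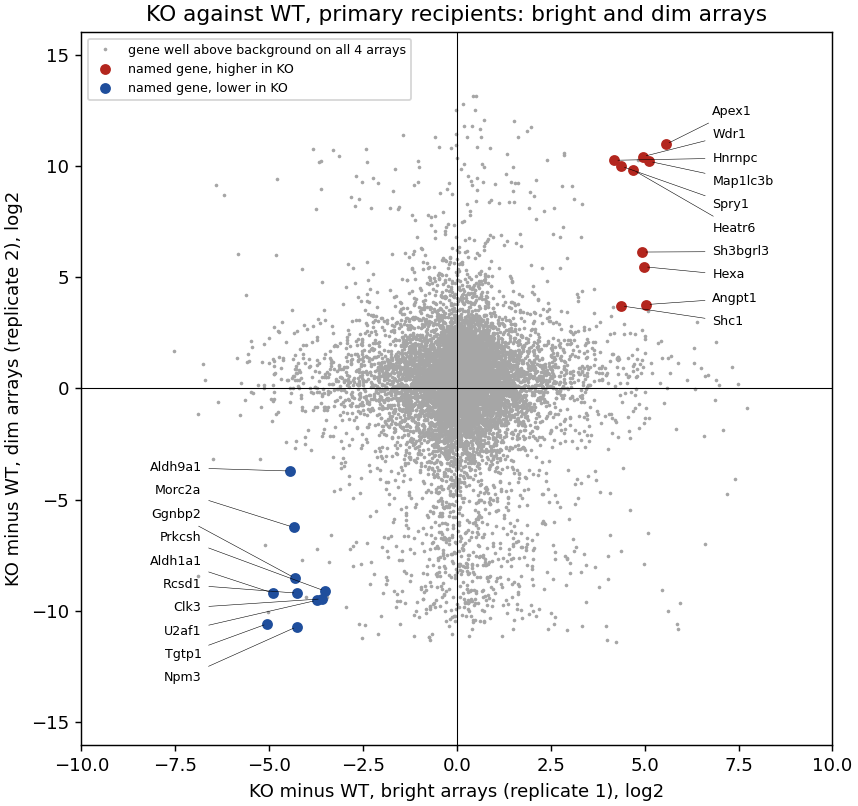
KO minus WT difference in log2 level on the bright arrays (replicate 1, horizontal axis) and on the dim arrays (replicate 2, vertical axis) for the 9850 genes well above background on all 4 primary recipient arrays (grey points). Red and blue points are the 10 genes per direction with the largest smaller difference; the cloud has no diagonal trend (r = -0.013).

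The genes that stood apart on all 4 arrays by the widest margin were ranked by the smaller of their differences on the bright and the dim arrays, 10 per direction. The 10 higher in KO were, in order, Apex1, Map1lc3b, Hexa, Wdr1, Sh3bgrl3, Heatr6, Spry1, Hnrnpc, Angpt1 and Shc1. Apex1 encodes an endonuclease of base excision repair that also acts on redox-sensitive transcription factors. Its levels were -1.11, -0.03, 4.45 and 10.94, a change of 8.09 with a standard error of 1.97. Map1lc3b, which encodes the LC3B protein of autophagosome membranes, had levels of 1.42, 0.23, 6.54 and 10.43. Wdr1, an actin-disassembly cofactor of cofilin, had levels of -0.15, -0.23, 4.80 and 10.18. In each of these 3 genes the WT arrays lay near the median gene and close to each other, and the KO arrays lay far above it and several log2 units apart.

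Angpt1 and Shc1 differed from the others in that the dim KO array was no higher than the bright KO array. Angpt1 encodes angiopoietin 1, the ligand of the Tie2 receptor of HSC and endothelial cells. Its levels were -0.33, -0.56, 4.72 and 3.21, a change of 4.23 with a standard error of 1.17. Shc1, an adaptor protein of growth factor receptors, had levels of -0.90, -0.40, 3.46 and 3.31. Spry1, an inhibitor of Ras and MAP kinase signalling, had levels of -1.25, 0.11, 3.12 and 10.10, and so followed the commoner pattern of a very high dim KO array. The lysosomal hexosaminidase subunit Hexa was the member with the highest WT level, 3.21 on the dim WT array against 4.45 on the bright KO array. The changes of the 10 genes ran from 3.86 for Shc1 to 8.09 for Apex1.

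The 10 genes lower in KO were Tgtp1, Aldh1a1, Morc2a, Ggnbp2, Npm3, Rcsd1, U2af1, Aldh9a1, Clk3 and Prkcsh. Tgtp1, a GTPase known as an interferon-induced gene of T cells, had levels of 2.26, 10.68, -2.78 and 0.11. Aldh1a1 encodes a retinaldehyde dehydrogenase, and the activity of this enzyme family is used as a dye-based marker of stem and progenitor cells. Its levels were 5.53, 10.07, 0.63 and 0.88, a change of -7.22 with a standard error of 1.49. A second aldehyde dehydrogenase, Aldh9a1, had levels of 2.62, 4.36, -1.83 and 0.65. U2af1, the small subunit of the splicing factor that recognises the end of introns, had levels of 5.25, 10.47, 1.53 and 0.96, and Clk3, a kinase of splicing factors, had levels of 4.08, 10.86, 0.49 and 1.41. The nucleophosmin relative Npm3 had the largest difference on the dim arrays of these 10, -10.70, with -4.26 on the bright arrays. Here the high dim array was the WT array in 9 of 10 genes by at least 3 log2 units over the bright WT array, with Aldh9a1 the exception.

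**Figure D2:**
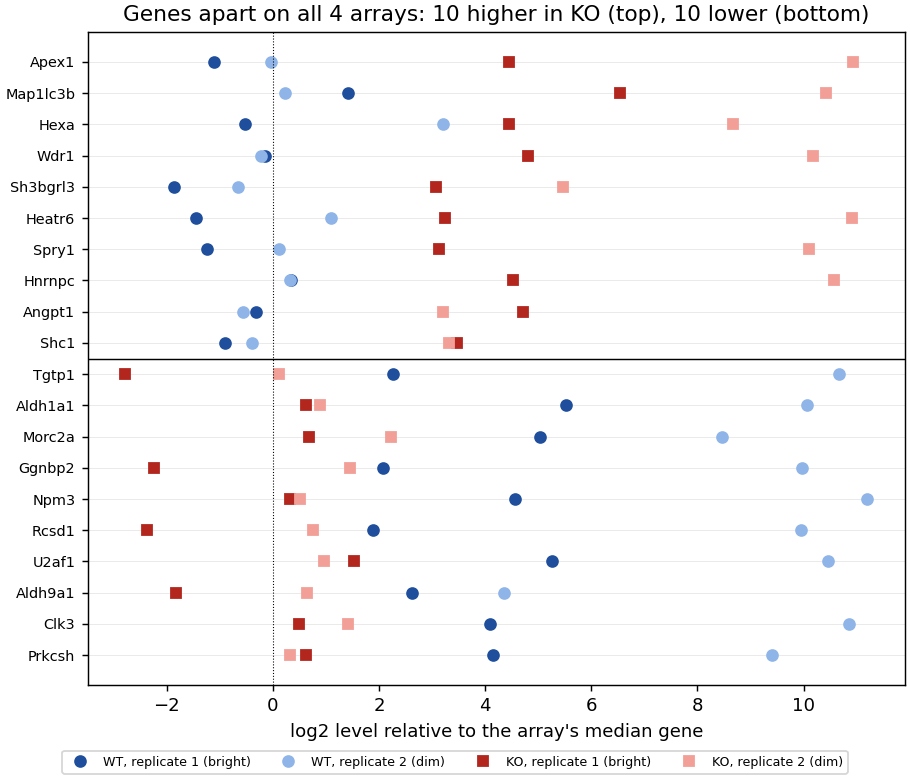
Log2 level relative to the array's median gene (horizontal axis) of the 20 genes (vertical axis) on each of the 4 arrays, circles for WT and squares for KO, dark for bright and pale for dim arrays. The pale symbol is the most extreme of the 4 in most genes; Angpt1 and Shc1 have their KO squares side by side.

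The edges of these lists were narrow. Of 990 candidates higher in KO, Shc1 was the last taken, with differences of 4.36 and 3.71 on the bright and dim arrays, and Gnb2 the first left out, with 3.65 and 4.45. Of 755 candidates lower in KO, Prkcsh was the last taken, with -3.52 and -9.10, and S100a10 the first left out, with -3.48 and -9.44.

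The secondary recipient arrays did not enter the ranking of these genes. They did enter the choice of each gene's probe, the one with the highest mean over all 8 arrays. There, 1 of the 10 genes higher in KO in primary recipients lay in the same direction, Shc1 with a KO minus WT difference of 0.54, and 0 did so without overlap. Of the 10 lower genes, 8 lay in the same direction and 4 did so without overlap, among them Aldh1a1 with -1.74. Over all genes tested, 25.2% were higher and 15.5% lower in KO without overlap in secondary recipients. Aldh9a1 and Clk3 had the other sign there, 2.20 and 1.60. The same reading over all genes was close to its background: 52.1% of the 3415 higher genes and 44.1% of the 2362 lower genes had a secondary difference above the median gene, against 50% of all genes. The WT arrays of both recipients share a slide, while the KO arrays of primary and secondary recipients lie on slides of their own.

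Probes that target the same gene did not often repeat each other. There were 1511 further probes, of 1324 genes, for which both the probe and the gene's brighter probe were well above background on all 4 arrays, and their changes correlated at r = 0.212 across probes. Where the brighter probe was higher in KO without overlap, 34 of 184 other probes were as well, 18.5% against 13.4% of all such probes. Where it was lower, 18 of 146 were, 12.3% against 8.01%. Of the 20 genes above, 4 higher genes had 5 other probes, 2 of them in the same direction, and 6 lower genes had 6 other probes, 5 of them in the same direction, 1 of these by no more than -0.008. Of these other probes, 1 of a higher and 3 of lower genes were well above background on all 4 arrays, 2 of the latter in the same direction and 0 without overlap. Map1lc3b is the clearest case of disagreement, since its other probe was well above background on all 4 arrays at 1.44, 2.40, 2.66 and 1.06, with no separation of the genotypes. Morc2a, a chromatin ATPase, went the other way by its other probe, with 2.63, 1.0, 2.70 and 4.47. The same held in the gene lists below. There were 155 other probes of 110 list members, named genes or markers whose main probe stood apart. Of these probes, 23 stood apart in the same direction, 118 overlapped and 14 stood apart in the opposite direction. Over all genes tested, 14.9% were higher and 10.3% lower without overlap. Levels, counts and statements on background below are those of a gene's main probe, the one with the highest mean over all 8 arrays, unless another probe is named.

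The probe sequences below show how the measurement of a gene rests on short stretches of its transcript. The probes are printed for genes whose probes were set against each other, and positions are those of the files in build mm8. Angpt1 was probed at chr15:42257097-42257156 and chr15:42326424-42326483 on the minus strand.
Angpt1, brighter probe: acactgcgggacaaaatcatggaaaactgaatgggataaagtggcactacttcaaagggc
Angpt1, other probe: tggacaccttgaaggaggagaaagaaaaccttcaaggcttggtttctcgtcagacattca
Vav1, a haematopoietic exchange factor for Rac GTPases, was probed on the plus strand, by a spliced probe between positions 56997200 and 57000602 of chromosome 17 and at chr17:57010039-57010098.
Vav1, brighter probe: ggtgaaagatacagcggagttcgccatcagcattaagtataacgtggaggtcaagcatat
Vav1, other probe: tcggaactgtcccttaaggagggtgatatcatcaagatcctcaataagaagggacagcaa
U2af1 was probed on the minus strand of chromosome 17, at chr17:31376967-31377026 and by a spliced probe between 31383721 and 31387366.
U2af1, brighter probe: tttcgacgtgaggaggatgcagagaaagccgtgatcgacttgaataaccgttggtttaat
U2af1, other probe: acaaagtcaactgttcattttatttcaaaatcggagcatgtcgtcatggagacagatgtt
The other Angpt1 probe lay at -5.35, 8.41, -2.72 and 7.66, so the dim arrays of both genotypes were high and the genotypes overlapped. Both U2af1 probes were lower in KO, the other probe with 3.30, 11.45, -6.23 and -2.09 and neither KO array well above background. The other Vav1 probe was well above background only on the dim WT array, at 2.14.

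Genes whose probes did repeat each other were picked out after their values were seen. Uqcrh, a hinge subunit of respiratory complex III, was higher in KO by 5.65 on its brighter probe and by 4.67 on its other probe. The brighter probe had levels of 2.91, 2.40, 6.03 and 10.93, and the other had 3.80, 0.97, 5.12 and 9.34. H3f3a, a gene for the replication-independent histone H3.3, was higher by 3.66, 4.50 and 2.53 on 3 probes. Ifi204, an interferon-induced gene of a multigene family whose members may share hybridisation, was higher by 5.19 and 5.66, with the dim KO array alone far above the rest. Lower in KO by both probes were Cmtm7, a membrane gene of B cells, with -5.11 and -6.39, and Abcf1, a translation-associated ATP-binding protein, with -4.72 and -4.70. Vamp8, a SNARE of granule release, was lower as well, with -3.19 and -4.22. The brighter Cmtm7 probe had 4.07, 9.68, 3.795 and 0.09, and its other probe had 4.85, 9.92, -0.12 and 2.46. Abcf1 had 2.13, 10.175, 1.76 and 1.46 on its brighter probe and 2.02, 10.285, 1.94 and 1.31 on the other. In Abcf1 the dim WT array alone lay far above the rest. The brighter Vamp8 probe had 4.58, 4.35, -0.62 and 3.53, with the bright KO array alone far below the rest. Larp1, which binds the mRNAs of ribosomal proteins, was lower by -6.60 and -5.23 on 2 probes, but another of its probes, also above background on all 4 arrays, overlapped with levels of 0.60, 1.19, 0.44 and 2.77.

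**Figure D3:**
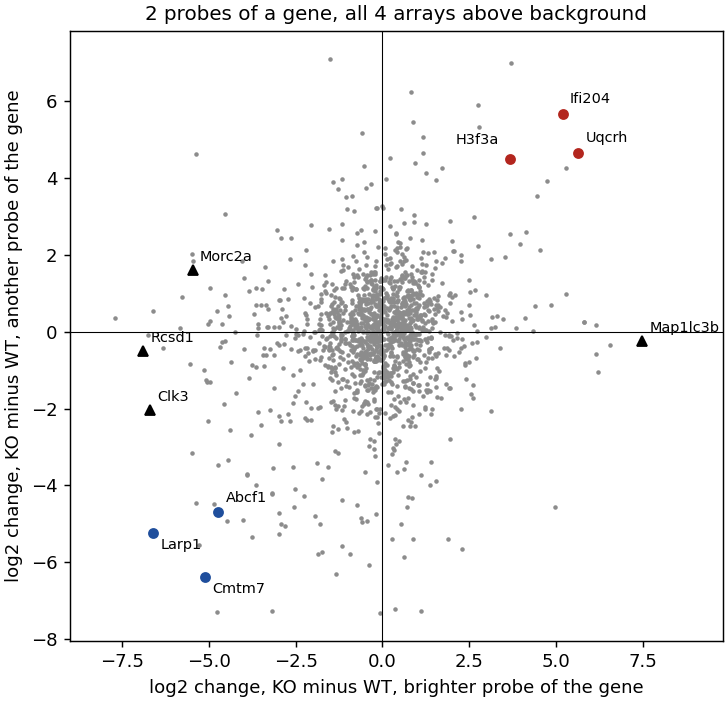
Log2 change, KO minus WT, of the brighter probe of a gene (horizontal axis) and of another probe of it (vertical axis), for 1511 probe pairs well above background on all 4 arrays (grey). Coloured circles are genes chosen for probes that repeated each other; black triangles are genes of the 20 whose other probe did not, with Map1lc3b at 7.49 and -0.24.

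Ranking by the lowest unadjusted p brought in genes that were below background in part of the arrays. Higher in KO were Sub1, a transcription coactivator, with a change of 5.99, Mycbp2, a large ubiquitin ligase, Map1lc3b, Odc1, which makes polyamines, with 6.33, Furin, a protein-cutting enzyme of the secretory route, with 7.70, and Rad21, a cohesin subunit, with 4.84. The main probe of Mycbp2 had levels of -5.07, -3.07, 3.85 and 11.26, with neither WT array well above background. Another of its probes ran the opposite way, at 9.06 on the dim WT array and above background on no other array. The other probes of Odc1 and Rad21 overlapped, with changes of -0.87 and -1.35, the former well above background on all 4 arrays. Lower in KO were Vav1, Ubap2l, Rp9, Hsdl2, Bcdin3d and Mrpl24, with changes from -6.64 for Hsdl2 to -9.68 for Bcdin3d. Vav1 had levels of 5.74, 8.51, -1.03 and -0.68, the last not well above background, a change of -8.16 with a standard error of 1.13. Ubap2l, an RNA-binding protein of stress granules, had levels of 3.71, 3.89, -3.31 and -2.33, and it was the gene of these 12 with the smallest standard error, 0.94. The WT levels of Ubap2l and Hsdl2 lay within 0.2 log2 units of each other, unlike those of most named genes. Of 4 other Ubap2l probes, 1 was also lower in KO without overlap, by a change of -1.89, and 3 overlapped, with changes from -5.12 to 1.58.

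Tcf3, the gene that encodes E47, did not separate the genotypes in primary recipients. The sources used here do not state whether its probes lie within the part deleted in the knockout. Its brighter probe lies at chr10:79816347-79816406 on the minus strand and has the sequence below, shown because Tcf3 is the gene knocked out.
Tcf3, brighter probe: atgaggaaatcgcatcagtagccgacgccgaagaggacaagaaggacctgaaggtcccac
Its levels were -0.57, 6.38, -1.05 and 3.40, a change of -1.90 with a standard error of 2.38, and the dim arrays of both genotypes were above the bright arrays. The other probe of Tcf3, further along the transcript, had levels of -1.71, -2.79, -2.60 and 8.13, so its only high value was in the dim KO array. The labels were therefore neither borne out nor contradicted by Tcf3 on these probes.

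The other E proteins and the Id proteins also lacked a shared direction. Tcf4, the E2-2 gene, had levels of -3.03, -3.14, -1.84 and -1.53 on its main probe, which was below background on both dim arrays. Another Tcf4 probe, above background on 3 arrays, had 3.15, -1.68, -1.67 and 0.60, a change of -1.45 in the opposite direction. Tcf12, the HEB gene, had 1.58, -0.29, 0.20 and -1.39, with the genotypes overlapping, but another of its probes was higher in KO without overlap, with -1.73, -2.86, 3.12 and 2.15. Id1 was 3.48 higher in KO on the bright arrays but at -9.48 on the dim arrays, and its other probe, which shares most of its bases with the first, gave 2.15 and -10.10. Id3 had 1.19, 3.27, 1.52 and 1.65, and Id2 was on the array but not tested. Among their partners, Lyl1 had 3.42, 0.80, 1.01 and 11.55, Tal1 had 4.33, 2.79, 2.97 and 2.49, and Lmo4, a LIM-only cofactor, had 3.82, 10.10, 3.49 and 2.51. Of the 19 genes tested in this list, 1 was higher and 1 lower in KO without overlap, 5.26% each, under the background of 14.9% and 10.3%. The median change was -0.81, against 0 over all genes.

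Lymphoid genes split between both directions. Of 21 lymphoid priming genes tested, 4 were higher in KO without overlap, Spib, Lax1, Ikzf1 and Rag1, and 4 were lower, Foxp1, Gata3, Tcf7 and Igll1, which is 19% each, against 14.9% and 10.3% of all genes. Tcf7, the TCF1 factor of early T cells, had levels of 3.81, 3.26, -0.07 and 0.49, a change of -3.50 with a standard error of 0.98, although a weaker probe of it was above background only on the bright KO array. Foxp1, a regulator of lymphoid development, had 3.02, 10.97, -1.27 and 0.00, the last not well above background, while its other probes overlapped. Rag1, the recombinase of antigen receptor genes, had -2.36, -2.12, 3.75 and -1.64, well above background on the bright arrays only. Ikzf1, the Ikaros gene, had the close pairs -0.37, -0.02 in WT and 0.72, 1.18 in KO. Flt3, the receptor that marks lymphoid-primed progenitors, overlapped with -0.25, 2.75, 1.13 and -0.02, as did Dntt, the terminal transferase, with 2.97, 4.39, 3.43 and 3.73. The median change of the list was -0.26, and it turned above 0 under quantile normalization and under normexp background correction.

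B lineage genes, the textbook targets of E2A, were near the median gene. Of 20 tested, 2 were higher in KO without overlap, 10% against 14.9% of all genes, and 1 lower, 5% against 10.3%. The median change was 0.13. Mzb1, a chaperone of antibody-making cells, had 0.96, 1.68, 2.70 and 3.53, and Igll1, a part of the surrogate light chain, had 2.07, 2.71, 1.92 and 0.16, with an overlap on its other probe. Pax5, which fixes B cell identity, had 1.85, 1.72, 1.68 and 2.60, and Ebf1 was well above background only on the dim KO array by its main probe and only on the bright KO array by another. Of 17 T and NK cell genes, 2 (11.8%) were higher and 3 (17.6%) lower, among them Cd8b1 and Ncr1.

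HSC transcription factors lay on both sides. Of 25 tested, Prdm16, Hlf, Gfi1b, Hoxb4, Meis1 and Hoxa5 were higher without overlap, 6 genes or 24% against 14.9% of all genes, and Myb, Zfx and Bmi1 were lower, 3 genes or 12% against 10.3%. Hoxb4, a homeobox gene known for expanding HSC, had levels of -0.84, 0.23, 1.72 and 2.48, a change of 2.24 with a standard error of 1.04, and it was well above background on all 4 arrays. Meis1, a partner of Hox proteins, had -2.48, -0.27, 1.45 and 0.66 on its main probe. Its other probe ran the opposite way, with -3.05, 8.17, -4.76 and -2.33. Hoxa5 had -2.85, -2.62, 4.97 and -1.28, so its difference lay in the bright KO array. Myb, needed for progenitor growth, had 2.45, 10.35, 1.83 and 0.73, so its difference lay in the dim WT array. Zfx, a zinc finger factor needed for HSC self-renewal, and Bmi1, a Polycomb gene, were lower by their main probes, but another probe of each was higher in KO without overlap, with changes of 1.42 and 2.53. The median of the list was 1.30 higher in KO on the bright arrays and -0.30 on the dim arrays, against 0.14 and 0.57 for all genes, and its median change was -0.42, with 14 of the 25 genes below the median gene. That median ran from -0.97 to 1.16 over 10 alternatives and was below 0 in 8 of them.

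Surface and niche genes of HSC went both ways as well. Of 26 tested, Slamf1, Angpt1 and Fgd5 were higher without overlap, 11.5% against 14.9% of all genes. A further 5 genes or 19.2% against 10.3% were lower, including Ly6a, Ctnnal1, Selp and Itga2b. Another Ctnnal1 probe was higher in KO without overlap, with a change of 2.185. Fgd5, an endothelial and HSC exchange factor whose locus is used to tag HSC, had -2.55, -2.63, 4.92 and 1.0, a change of 5.37 with a standard error of 1.42. Slamf1, the CD150 gene of the SLAM code for HSC, had -0.54, -1.54, 2.74 and 0.23, while its other probe overlapped with a change of 0.115. Ly6a, which encodes Sca-1, the antigen by which mouse HSC are sorted, had 4.67, 11.03, 2.38 and 3.22, a change of -5.23 with a standard error of 1.93. Ly6a had the same sign in the secondary recipients, at -3.15, while Slamf1 had the other sign there, -3.62, and Fgd5 had -0.34. Kit, the stem cell factor receptor, had 0.70, 9.58, 1.61 and 0.68.

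Of 10 HSC markers, 4 were higher in KO without overlap by their main probes, Slamf1, Hlf, Meis1 and Fgd5, and 3 were lower, including Ly6a and Ctnnal1. Over all genes the shares were 14.9% and 10.3%. For Ctnnal1 and Meis1 another probe ran the opposite way. The median levels of the 10 markers were 0.08, -1.38, 1.53 and 0.45. Of these 10 HSC markers, 10 were well above background on each bright array, but 4 on the dim WT and 6 on the dim KO array. Procr, Hlf, Mecom and Ctnnal1 were not well above background on either dim array by their main probes, but another Mecom probe was at 9.59 on the dim WT array alone. Of 10 neutrophil and monocyte markers, 10, 9, 10 and 9 were well above background, and their median levels were 5.65, 11.43, 4.54 and 11.39. S100a8, an abundant neutrophil calcium-binding protein, had 6.11, 12.18, 6.0 and 12.67, with no separation of WT and KO. Elane, neutrophil elastase, had 3.90, -1.86, 4.80 and 10.82, and Lcn2, lipocalin 2, had 3.99, 11.05, 4.28 and -2.26, so each of these was not well above background on 1 dim array. The log2 of the summed level of the set was 8.99, 14.61, 8.87 and 14.99. In a bulk sample, fewer cells of a type and less RNA per cell cannot be told apart, and the part of these cells in the differences between genotypes was not tested.

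**Figure D4:**
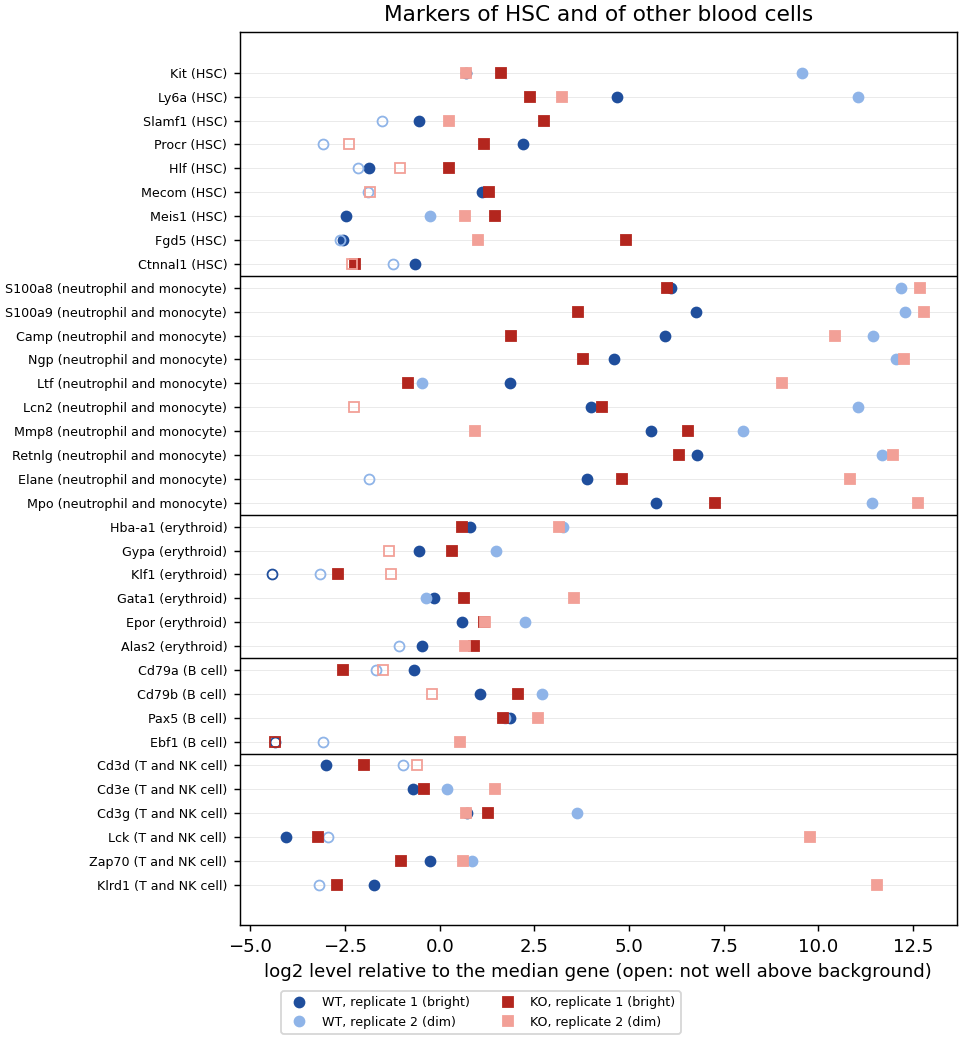
Log2 level relative to the array's median gene (horizontal axis) of markers of HSC, neutrophils and monocytes, erythroid, B, T and NK cells (vertical axis), circles for WT and squares for KO, dark for bright and pale for dim arrays, open where not well above background. The pale symbols of S100a8, Ngp, Retnlg and Mpo lie above 11 in both genotypes.

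Other lineages showed fewer high markers. For T and NK cells, 6, 3, 6 and 5 of 6 markers were well above background, and Lck and Klrd1 reached 9.77 and 11.54 on the dim KO array against -2.95 and -3.18 on the dim WT array, so the log2 of their set's summed level was 11.91 there and 1.84 to 4.00 on the other 3 arrays. For B cells 4, 3, 4 and 3 of 5 were above background. Of the 15 erythroid genes tested, Alas2, Klf1, Gata1 and Ermap were higher in KO without overlap, 26.7% against 14.9% of all genes, and 0 were lower, against 10.3%. The median change of the list was -0.28, with 10 of 15 genes below the median gene, and Klf1 was well above background on 1 array. Gata1, the master factor of the erythroid and megakaryocyte lineages, had -0.14, -0.36, 0.63 and 3.55. Of 15 megakaryocyte genes, 4 were lower in KO, including Gp1ba, Gp6 and Itga2b, 26.7%, and 0 higher, with Gp1ba, a platelet receptor subunit, at 3.62, 4.59, 2.94 and 0.28. Of 21 neutrophil and monocyte genes, 1 was higher, Elane (4.76%), and 0 lower.

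Cell cycle genes had no shared direction. Among 9 CDK inhibitors and Rb family genes tested, Cdkn1a, Cdkn2c and Cdkn3 were lower in KO without overlap, 33.3% against 10.3% of all genes. Rbl2 was higher, 11.1% against 14.9%. The median change of the list was -1.16 and stayed below 0 in each of 10 alternatives. Cdkn1a, which encodes p21, the inhibitor of cyclin-dependent kinases that is known as an E2A target and a brake on HSC division, had levels of 2.34, 1.12, 1.03 and -0.14, a change of -1.46 with a standard error of 1.04. The lowest WT level and the highest KO level of Cdkn1a were 1.12 and 1.03, close to touching, and the last value was not well above background. Cdkn2c, the p18 gene, had 4.39, 5.79, 3.98 and 4.23, but its other probe, also above background on all 4 arrays, was higher in KO with 2.43, 1.97, 3.31 and 3.73. Cdkn1b and Cdkn1c, for p27 and p57, overlapped. Of 19 G1 cyclins, CDKs and Myc family genes, Ccnd1, E2f2 and E2f3 were higher (15.8%) and Ccnd2, Ccnd3, Ccne2 and Mxi1 were lower (21.1%). Ccnd2 had 3.33, 11.65, 1.90 and -1.17, and Ccnd1 had -0.33, 1.79, 3.54 and 2.49. The fall of Ccnd2 lay in 1 of its 3 probes, since the others, well above background on all 4 arrays, had changes of -0.64 and 0.17.

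Of 41 DNA replication and mitosis genes, 7 were higher in KO without overlap and 3 lower, 17.1% and 7.32% against 14.9% and 10.3% of all genes. The median change was 0.17. Birc5, the survivin gene of the mitotic spindle, had 3.77, 4.52, 5.88 and 12.14, and Pcna, the sliding clamp of replication, had 3.34, 2.38, 0.09 and 0.67. Of 23 p53 pathway genes, 2 were higher (8.7%) and 5 lower (21.7%), Ddb2, Sesn1, Tnfrsf10b, Cdkn1a and Fas. Ddb2, a sensor of ultraviolet damage and a known p53 target, was not well above background on either KO array, with WT levels of 3.73 and 8.86. In the mean over both replicates it was at least 316-fold lower. The bound sets the WT mean against the lowest signal well above background on each KO array, or the probe's own where that is higher. It holds for the means of the groups and not for each pair of arrays. Trp53 itself had 4.01, 6.0, 5.69 and 5.89, and a weaker probe of it was higher in KO with -1.93, -0.80, 0.50 and 0.82. Of 34 DNA repair genes, 7 were higher (20.6%) and 4 lower (11.8%). H2ax, the histone of damage foci, had 2.78, -0.08, 4.40 and 11.22, and Msh6, a mismatch sensor, had 2.55, 4.31, -2.69 and 1.15. Of 14 Bcl2 family genes, Bcl2l1, Bcl2, Bik and Bok were higher (28.6%) and 0 lower, with Bcl2 itself at the close values 5.83, 5.95, 5.96 and 6.53.

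The respiratory chain had more members lower in KO than the background share. Of 69 genes tested, 18 were lower without overlap, 26.1% against 10.3% of all genes, and 8 were higher, 11.6% against 14.9%. The median change was -1.02, against 0 for all genes, with medians of -0.19 on the bright arrays and -0.14 on the dim arrays, against 0.14 and 0.57. It lay between -1.66 and -0.29 in 10 alternatives, the value nearest 0 being that without WT replicate 1. By complex, the lower genes were 5 of 30 in complex I, 2 of 4 in complex II, 2 of 9 in complex III, 3 of 10 in complex IV and 6 of 15 in the ATP synthase, and the higher genes were 4, 0, 2, 1 and 0, with the electron carrier gene Cycs as the last. Sdhc, a membrane anchor of complex II, had 3.41, 3.99, 0.37 and 1.32, a change of -3.03 with a standard error of 1.16. Sdhc repeated the direction in the secondary recipients, at -2.22. Cox6a1, a subunit of complex IV, had 3.38, 11.54, 1.17 and -0.71, while Cox6c of the same complex had 2.86, 1.22, 4.24 and 9.58. Uqcrh, described above, and Uqcr10 of complex III were higher, the latter with 0.94, 1.14, 3.49 and 4.08. Members of a single complex thus stood in opposite directions in complexes I, III and IV.

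Other metabolic lists had single genes with wide differences. Of 20 genes of the TCA cycle, Mdh2 and Sucla2 were higher, 10% against 14.9% of all genes. Idh2, Sdhc and Sdhb were lower, 15% against 10.3%. Mdh2, mitochondrial malate dehydrogenase, had 2.29, 0.89, 5.14 and 11.36. Idh2, mitochondrial isocitrate dehydrogenase, was not well above background on either KO array, with WT levels of 2.50 and 9.27. By the same bound on group means it was at least 238-fold lower, although its WT arrays lay far apart. Idh2 was also lower in secondary recipients, at -5.24. Of 23 glycolysis genes, 4 were higher and 4 lower (17.4% each). Pgk1, phosphoglycerate kinase, had 3.89, 8.26, 1.34 and -1.12, while Ldha, lactate dehydrogenase, had 3.80, 2.31, 5.70 and 3.98. Of 23 genes of mitochondrial biogenesis, dynamics and import, 5 were higher (21.7%) and 4 lower (17.4%). Ppargc1a, the coactivator of that programme, had 4.00, 2.75, 4.46 and 7.05 on its main probe. Its other probe had a change of -1.40. Of 18 genes of fatty acid oxidation, 1 was higher, Hadhb (5.56%), and 0 lower. Of 29 antioxidant genes, 0 were higher and 4 lower (13.8%), Prdx1, Sod1, Txnip and Keap1. Txnip, an inhibitor of thioredoxin, had 4.30, 10.49, 2.94 and -2.31, the last not well above background. Another Txnip probe, well above background on 3 arrays, overlapped with a change of 1.25. Sod1 had 0.12, 11.15, -0.61 and -2.34. In Prdx1, Sod1 and Txnip the dim WT array was the only one above 10.

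Of 30 interferon response genes, 8 were lower in KO without overlap, 26.7% against 10.3% of all genes, and 3 were higher, 10% against 14.9%. The lower genes included Psmb8, Ly6a, Oas1a, Ifi35, Bst2, Ifih1 and Mx1. Bst2, tetherin, had 5.20, 4.24, 3.69 and 2.74. Irgm1, an interferon-induced GTPase, was higher, with 2.98, 1.06, 3.66 and 11.16, but another probe of it ran the opposite way, with -1.97, 9.64, -1.53 and -2.03. The median change was -0.51, with -0.22 on the bright and 0.30 on the dim arrays, against 0.14 and 0.57 for all genes, and it was 0.07 without WT replicate 1. Of 23 immediate early genes, which respond within minutes to handling and signals, Ier2, Egr2 and Fosl1 were higher (13%) and Egr3 and Zfp36 lower (8.7%).

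Genes of protein turnover and structure also lay on both sides. Of 21 autophagy genes, 4 were higher, 19% against 14.9% of all genes, including Map1lc3b and Atg5. A further 5 were lower, 23.8% against 10.3%, Atg12, Atg4b, Gabarap, Sqstm1 and Atg16l1. Both other probes of Atg12 were higher in KO, with changes of 2.65 and 2.83. Gabarap, a relative of LC3, had 2.18, 4.45, -1.82 and -0.99, with an overlap on its other probe. Of 31 proteasome genes, 4 were higher (12.9%) and 7 lower (22.6%). Psmd7, a lid subunit, had 0.07, 0.53, -2.07 and -2.24 on its main probe. Another of its probes, well above background on all 4 arrays, overlapped with 0.57, 1.12, 1.5 and 0.22. Of 14 cohesin genes, Smc3 and Rad21 were higher and Nipbl and Cdca5 lower (14.3% each way). Of 28 genes of the actin cytoskeleton, 3 were higher (10.7%) and 4 lower (14.3%), with Wdr1 and Vav1 at the ends. Of 10 mast cell and basophil genes, 0 were higher and 2 lower (20%), Cma1 and Tpsb2.

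Cytosolic ribosomal protein genes are abundant in every growing cell and give a view of the brightest probes. Their median level was 5.56, 11.52, 5.74 and 10.49, so the set was high on every array and higher on the dim arrays. Of 71 tested, 0 were higher without overlap, against 14.9% of all genes. The genes Rpl5, Rpl3, Rps13 and Rps19 were lower, 4 genes or 5.63% against 10.3%. The median change was -0.07. Over 10 alternatives it ran from -2.62 to 2.22 and kept its sign in 5. Rps19 overlapped on its other probes. Even in this set, single genes were not well above background on single arrays. Rpl5 had 5.89, 11.76, 4.39 and -2.22, with the dim KO array at background. Of 63 mitochondrial ribosomal protein genes, 11 were higher (17.5%) and 6 lower (9.52%). Mrpl32 had -2.03, -0.68, 3.68 and 0.79, and Mrpl24 had 3.43, 7.88, -3.14 and -2.24.

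**Figure D5:**
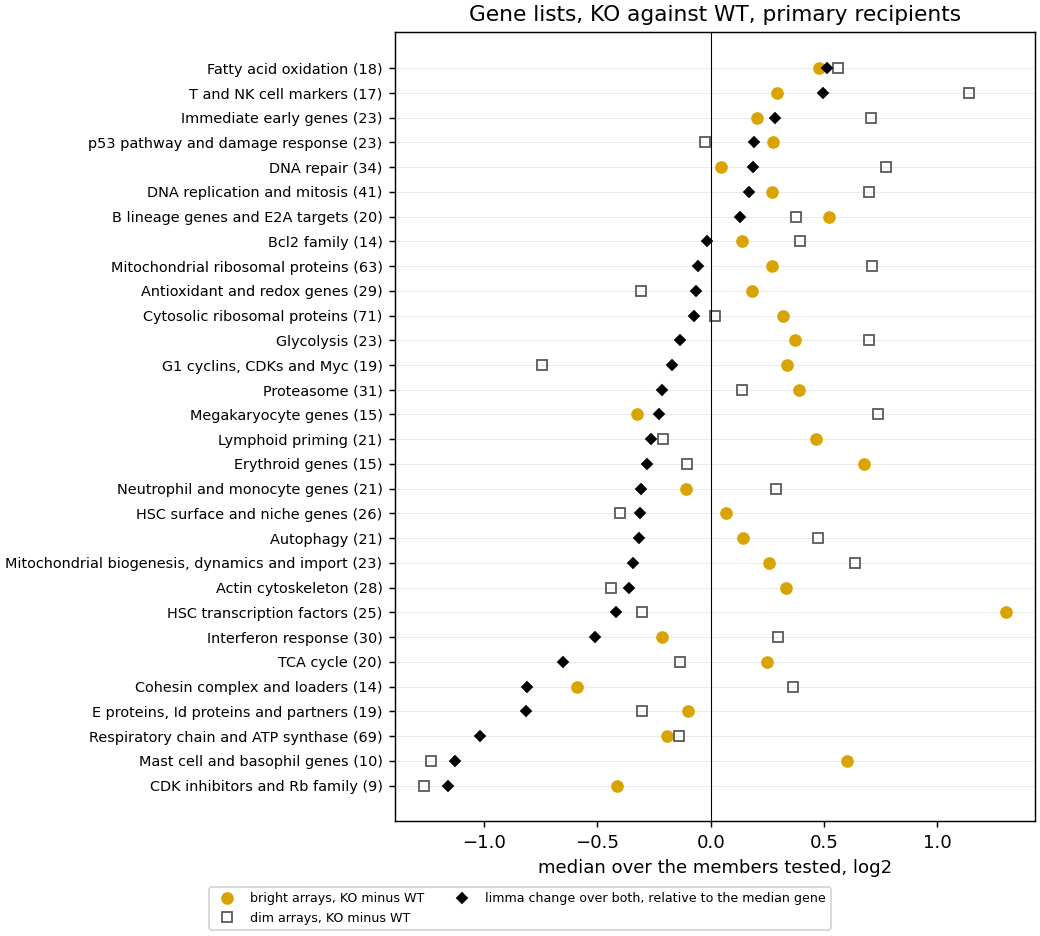
Median over the tested members of each of 30 gene lists (number tested in brackets) of the KO minus WT difference on the bright arrays (circles), on the dim arrays (squares) and of limma's change relative to the median gene (diamonds), in log2 units. The HSC transcription factors lie highest on the bright arrays, at 1.30; 23 lists have a median change below 0 and 7 above.

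Promoters were searched for the E-boxes that E proteins are known to bind. The letters searched were CAGCTG, which reads the same on both strands, and the other common form, CAGGTG on either strand. Windows from 250 bases before to 50 after the start of a gene came from RefSeq on build GRCm38.p6, and 32.9% of 32851 windows held such a motif. Of the windows of genes tested, 32% did, against 29.1% for genes higher in KO without overlap and 34.6% for genes lower. Counted by gene, 35.9% of all 27025 genes with a window held a motif. Of the 10 genes higher in KO by the widest margin, 9 had a window and 2 of these held a motif. Of the 10 lower genes, 9 had a window and 1 held a motif, Aldh1a1. The windows of both higher genes are printed because they carry a motif beside a wide difference, with the motif in capitals. Map1lc3b is at chr8:121590188-121590487 on the plus strand and Sh3bgrl3 at chr4:134128684-134128983 on the minus strand. A match is a description of the letters and not a bound site.
Map1lc3b promoter: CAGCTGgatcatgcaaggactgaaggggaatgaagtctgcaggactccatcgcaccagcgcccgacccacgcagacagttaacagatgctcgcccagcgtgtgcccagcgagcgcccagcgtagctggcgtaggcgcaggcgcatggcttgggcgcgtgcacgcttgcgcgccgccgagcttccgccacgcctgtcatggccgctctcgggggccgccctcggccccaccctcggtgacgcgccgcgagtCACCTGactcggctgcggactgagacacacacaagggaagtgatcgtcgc
Sh3bgrl3 promoter: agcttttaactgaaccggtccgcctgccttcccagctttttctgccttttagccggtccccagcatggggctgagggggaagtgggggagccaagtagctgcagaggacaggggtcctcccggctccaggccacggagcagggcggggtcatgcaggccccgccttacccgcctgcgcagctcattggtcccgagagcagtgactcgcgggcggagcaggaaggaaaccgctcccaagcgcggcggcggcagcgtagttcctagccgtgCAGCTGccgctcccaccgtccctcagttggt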

How the data were processed

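Per the file headers, the authors' scanner output came from Agilent Feature Extraction 10.5.1.1 (design 014868, build mm8). It gives linear spot intensity as a processed signal, background-subtracted, with low values replaced by surrogates. In the authors' series matrix each value is a ratio to the median of its array, matching the scanner values within 0.999946 to 1.000052, and served as an alternative. Control and outlier spots were left out, spots of a probe were averaged, and log2 intensity minus the array's 75th percentile was computed here from the deposited intensities. A gene took its probe of highest mean over 8 arrays. Testing required a probe well above background on each array of some group. Probes were named by accession through GRCm38.p6 (24375 by the first accession). The fit was limma 3.58.1 (R 4.3.3, lmFit and eBayes), 4 groups of 2 arrays, 4 residual degrees of freedom, two-sided, Benjamini-Hochberg threshold 0.05, checked on simulated data.

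Named genes were those of the E and Id proteins, the 10 per direction well above background on all 4 arrays and without overlap with the largest smaller difference, the lowest p per direction of each list, and the 6 lowest p per direction; clone-style names were left out, and some genes are not reported here. "At least" folds set the brighter group's mean against a floor per array of the dimmer group, the higher of the probe's signal and the lowest well-above-background signal. Of 824 entries in 30 lists, 812 matched and 792 were tested. The genes and lists were chosen with earlier results of these data known. Alternatives were quantile normalization, normexp (offset 50), matrix values, other filters, centring, left-out arrays, fits on the 4 arrays and a replicate block.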

Additional observations from a re-analysis of the deposited data

Results flagged for a closer look

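Of the genes ranked above by the widest margin or by the lowest p, 8 stood apart in opposite directions in primary and secondary recipients. Both were without overlap, and the difference between recipients was not tested. Higher in KO in primary recipients, their KO minus WT differences in secondary recipients were -1.61 for Map1lc3b, -1.38 for Hexa, -3.18 for Wdr1, -1.65 for Sh3bgrl3, -0.85 for Hnrnpc, -0.82 for Mycbp2 and -0.68 for Furin. Bcdin3d, an RNA methyltransferase gene lower in KO in primary recipients, had 1.48 in secondary recipients. The rankings held 10 genes per direction by margin and 6 per direction by p, with Map1lc3b in both. Of all 3415 genes higher in KO without overlap in primary recipients, 14% were lower without overlap in secondary recipients. Of all 2362 lower genes, 21.4% were higher without overlap there. Other named genes also stood apart in opposite directions. Tcf4, Ccnd1 and Ldha, higher in KO in primary recipients, had -3.39, -1.22 and -0.21 in secondary recipients. Egr3 and Igll1, lower in KO in primary recipients, had 2.52 and 0.88. All 4 secondary arrays were bright.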

How the results depend on the processing

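The count of genes past the threshold was 0 in each alternative but the one without WT replicate 1, and leaving out 1 array at a time gave 0 to 542. With the replicate block it was 0, with a lowest adjusted p of 0.943. Each genotype has an array of each replicate, so the block cannot change a KO minus WT difference. It therefore says nothing on the directions of the 87 named genes. Over the genes tested, the deviations of WT and KO replicate 1 from their group means correlated at 0.149. A shared origin of the arrays of a replicate was not tested. Requiring some probe of a gene to be above background on all 4 primary arrays left 10188 genes, against 9850 by the main probe alone. Of the 10188, 1464 (14.4%) were higher and 1154 (11.3%) lower without overlap, fewer because fewer genes were tested. Quantile normalization and normexp turned the direction of no named gene. The filters keep a gene's values and move only the median gene, so they could hardly turn one. The matrix values are the scanner values over a constant per array, which the scaling removes. They repeat the main result for genes and for lists, and are no separate check among the alternatives. Without both dim arrays 9 turned: Ank1 0.31, Ccr7 -0.29, Cdkn1b -1.11, Gata2 1.16, Glrx -2.42, Id1 3.33, Id3 0.20, Lcn2 0.15 and Lyl1 -2.55. Leaving out 1 array at a time turned 8 named genes, with ranges for Ank1 -2.96 to 0.007, Cdkn1b -0.54 to 1.86, Glrx -0.78 to 6.52, Id1 -8.15 to 1.70, Lyl1 -0.71 to 9.03, Mcl1 -4.77 to 1.0, Tcf3 -5.13 to 1.22 and Treml1 -0.64 to 1.71. Of 30 lists, 6 kept the sign of their median in all 10 alternatives: the E and Id proteins, megakaryocyte genes, CDK inhibitors, respiratory chain, fatty acid oxidation and cohesin. The causes were not tested. On the dim arrays most probes lay below background, which limits any statement on low genes there.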
